A study of Homo sapiens with 5 samples.

Results

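PLAGL1 and IGF2R on chromosome 6 and GRB10, PEG10, SGCE and MEST on chromosome 7 were listed as imprinted genes. Their DNA methylation was read from a table of 288391 windows of 1000 bases on genome build hg38. Whether each gene was expressed from a single allele in these cells was not measured. The 6 genes were chosen as a list, with no measured value in the rule but with earlier results of these data known. A window belonged to a gene where the deposited table gave it that gene symbol, or where it overlapped the gene with 1500 bases added at each end. This gave 68 windows, with 11 for PLAGL1, 23 for IGF2R, 23 for GRB10, 3 for PEG10, 4 for SGCE and 6 for MEST, and 2 of these windows belonged to both PEG10 and SGCE. No window carried the symbol of MEST, so its position was taken from RefSeq GRCh38.p14, which uses the same coordinates, and the table assigned 4 of its 6 windows to MESTIT1, a transcript antisense to it.

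The windows come from reduced representation bisulfite sequencing (RRBS), in which DNA is cut at CpG-rich sites, unmethylated cytosines are converted and the share of unconverted cytosines is read. The cells were human iPSCs of the line 201B7, an established pluripotent stem cell line labelled as wild type, kept without feeder cells per the labels and treated for 48 h. The study also worked with human iPSCs that carry an mCherry-MBD-nls reporter, a fluorescent protein that binds methylated DNA, and neither the labels nor the RRBS methods say that these libraries came from reporter cells. The vehicle control culture received 0.1% DMSO, and the others received 1 nM etoposide, a topoisomerase II inhibitor, 1 µM propyl gallate, an antioxidant, 1 µM theophylline, a methylxanthine, or 10 nM 5-aza-dc, a DNA methyltransferase inhibitor. Per the methods, the chemicals were also dissolved in DMSO, at no more than 0.1% in the end. There was 1 library per condition, so no difference could be weighed against replicate error, and each comparison below is between 2 libraries and not between 2 conditions.

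A value is the β-value, the percentage of CpG cytosine calls in a window that were methylated. A call is a single cytosine in a single read, so several calls can come from the same DNA molecule. Every interval given here is a 95% interval that covers counting error only. Intervals and tests treat calls as independent. Where calls share a molecule, the intervals are too narrow and the adjusted p-values too small. The median window of the table held between 398 calls (5-aza-dc) and 499 calls (vehicle control), and the windows of the 6 genes held from 27 to 4897. Windows near the starts of the pluripotency genes SOX2, LIN28A and DPPA4 lay at or below 7.04% in all libraries. For the pluripotency gene POU5F1, the windows at the outer annotated end of the gene, from chr6:31180001 and chr6:31181001, lay between 83.2% and 95.4%. Other starts of POU5F1 were not read, so these values do not give the methylation of its promoter in general. NANOG had no window. The windows read did not all look alike, and the values do not settle the cell type. They are methylation levels and give no level of expression.

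In an imprinted gene, a single parental allele carries methylation over a control region, usually a CpG island, that is laid down in the germ line and kept through cell division. A region of this kind therefore reads close to the middle of the β-value scale when both alleles are sequenced together, whereas most other CpG islands read near either end. The control regions of these genes are methylated on the maternal allele: the island at the internal start of PLAGL1 that it shares with the noncoding RNA HYMAI, the island inside IGF2R where the antisense RNA AIRN starts, an internal island of GRB10, the island between the divergent starts of PEG10 and SGCE, and the island at an internal start of MEST. In cultured pluripotent stem cells imprinted methylation is widely used as a measure of epigenetic stability. RRBS calls do not tell the alleles apart, so a value near the middle does not show by itself that one allele was methylated.

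The sequences below are the 250 bases before annotated starts of 4 of the genes, printed 5′ to 3′ on the strand of the gene from RefSeq GRCh38.p14. Every CG is in capitals, because a β-value counts cytosines in CG. Parts of some sequences lie outside the measured windows, so not every CG printed enters a β-value given here. They were chosen to set starts inside half-methylated windows beside starts inside unmethylated windows. RefSeq promoters were given for PLAGL1, IGF2R, GRB10 and MEST, with 16 in all, and not for PEG10 and SGCE.
PLAGL1 internal start, chr6:144008260-144008509, minus strand: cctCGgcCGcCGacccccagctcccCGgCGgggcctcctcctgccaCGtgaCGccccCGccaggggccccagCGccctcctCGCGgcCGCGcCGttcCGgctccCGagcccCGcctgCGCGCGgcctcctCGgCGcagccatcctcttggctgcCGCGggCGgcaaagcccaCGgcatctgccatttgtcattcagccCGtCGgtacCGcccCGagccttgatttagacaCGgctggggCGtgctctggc
GRB10 internal start, chr7:50782897-50783146, minus strand: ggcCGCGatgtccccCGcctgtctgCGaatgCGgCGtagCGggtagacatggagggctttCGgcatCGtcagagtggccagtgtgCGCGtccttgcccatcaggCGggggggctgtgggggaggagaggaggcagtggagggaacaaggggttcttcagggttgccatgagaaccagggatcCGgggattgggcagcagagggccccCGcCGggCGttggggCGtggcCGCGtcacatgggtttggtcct
MEST internal start, chr7:130491835-130492084, plus strand: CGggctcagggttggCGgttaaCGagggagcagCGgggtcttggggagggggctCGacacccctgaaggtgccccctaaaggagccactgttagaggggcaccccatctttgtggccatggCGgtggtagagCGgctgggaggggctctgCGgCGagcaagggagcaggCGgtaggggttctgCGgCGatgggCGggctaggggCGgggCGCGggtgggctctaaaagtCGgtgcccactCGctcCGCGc
IGF2R start, chr6:159968832-159969081, plus strand: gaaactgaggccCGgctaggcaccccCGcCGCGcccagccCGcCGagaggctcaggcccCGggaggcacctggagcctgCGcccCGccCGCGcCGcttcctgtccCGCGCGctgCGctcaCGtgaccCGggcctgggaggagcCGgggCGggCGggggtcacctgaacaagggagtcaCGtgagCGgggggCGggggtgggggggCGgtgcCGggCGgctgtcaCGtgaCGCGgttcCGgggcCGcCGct
GRB10 upstream start, chr7:50793454-50793703, minus strand: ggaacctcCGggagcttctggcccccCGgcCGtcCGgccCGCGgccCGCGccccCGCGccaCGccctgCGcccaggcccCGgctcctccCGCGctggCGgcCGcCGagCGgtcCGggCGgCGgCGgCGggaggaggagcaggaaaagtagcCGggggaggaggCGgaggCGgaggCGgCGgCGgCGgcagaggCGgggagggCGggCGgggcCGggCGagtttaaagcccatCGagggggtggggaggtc
MEST upstream start, chr7:130486097-130486346, plus strand: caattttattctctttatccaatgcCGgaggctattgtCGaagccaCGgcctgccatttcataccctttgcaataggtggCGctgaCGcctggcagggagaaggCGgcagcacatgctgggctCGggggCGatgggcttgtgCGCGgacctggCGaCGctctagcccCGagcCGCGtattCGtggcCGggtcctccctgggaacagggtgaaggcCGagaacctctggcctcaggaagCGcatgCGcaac

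The first 3 sequences lie at starts in half-methylated windows and held 32 (PLAGL1), 19 (GRB10) and 20 (MEST) CG. The last 3 lie at starts in unmethylated windows and held 33 (IGF2R), 37 (GRB10) and 20 (MEST). The median over 34788 RefSeq promoters of the same length was 11.0, and each of the 6 chosen sequences held more. Of the starts not printed, those in half-methylated windows held 3 (PLAGL1), 11 and 16 CG (MEST). Those in unmethylated windows held 40 (GRB10) and 9 (MEST). The 6 were picked, so their CG numbers do not show whether CG number goes with the methylation class. CCGG, a sequence at which RRBS enzymes of the usual kind cut, occurred 2 times in the PLAGL1 sequence, 2 times in the GRB10 internal sequence and 0 times in the MEST internal sequence. It occurred 6 times in the IGF2R sequence, 7 times in the GRB10 upstream sequence and 2 times in the MEST upstream sequence, and 58.4% of all promoters held it. TGCCGC, the core motif bound by ZFP57, a zinc finger protein that keeps imprinted methylation, was searched on both strands. It occurred 2 times in the PLAGL1 internal sequence, 1 time in the GRB10 upstream sequence, 1 time in the MEST upstream sequence and 0 times in the other 3, against 12.8% of all promoters that held it. A match is a description of these letters and not of a bound site, and no match says only that the letters are not in these 250 bases.

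Of the 68 windows, 10 were half-methylated, defined as a mean β-value of the 5 libraries from 30% to 70%. That is 14.7%, against 4.08% of all windows of the table. Among CpG island windows the share was 7 of 16 (43.8%) for the imprinted genes and 2884 of 49761 (5.80%) for the table. Another 7 of the 16 island windows were under 10%, close to the table's 47.8%, whereas a single one (6.25%) was over 70%, against 40.1% of the table. Outside islands the genes looked like the table, with 48 of 52 windows (92.3%) over 70%, against 93.5%. The half-methylated windows belonged to PLAGL1 (4), MEST (3), GRB10 (2) and IGF2R (1), and PEG10 and SGCE had none. The nearest windows outside the class were a PLAGL1 window with a mean of 19.5% and a GRB10 window with a mean of 76.3%.

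PLAGL1 (ENSG00000118495, chr6:143940300-144064599, minus strand) encodes a zinc finger transcription factor expressed from the paternal allele. Its 2 half-methylated island windows lay 56.1 and 57.1 kb inside the annotated start, at the internal promoter that HYMAI shares. The window chr6:144008001-144009000, which holds the PLAGL1 sequence printed above, had β-values of 36.6% (vehicle control), 51.1% (etoposide), 43.4% (propyl gallate), 39.1% (theophylline) and 33.6% (5-aza-dc), from 4419 to 4897 calls. Its neighbour chr6:144007001-144008000 had 39.9%, 64.7%, 48.7%, 52.6% and 41.4% in the same order, from 470 to 797 calls. In both windows the etoposide library was the highest of the 5 and its 95% Wilson interval (49.7% to 52.6% and 61.4% to 68.0%) lay above those of the other 4.

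Further PLAGL1 windows were half-methylated away from the island. A shore window 2.10 kb inside the annotated start, chr6:144062001-144063000, read 69.6% (vehicle control), 52.7% (etoposide), 68.1% (propyl gallate), 62.0% (theophylline) and 56.4% (5-aza-dc), so here etoposide was the lowest library. A window annotated to the 5′ UTR, chr6:143965001-143966000, read 41.4% in the vehicle control, with the extremes of 36.2% in the etoposide and 45.1% in the propyl gallate library, and no chemical library passed the test against the vehicle control there. The CpG island at the upstream start of the gene, chr6:144063001-144064000, was low, at 15.3% (vehicle control), 14.1% (etoposide), 14.0% (propyl gallate), 16.2% (theophylline) and 8.47% (5-aza-dc). The 5-aza-dc library was the lowest there and its interval (6.86% to 10.4%) did not overlap those of the others.

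IGF2R (ENSG00000197081, chr6:159969082-160113507, plus strand) encodes the receptor that carries IGF2 and mannose-6-phosphate-tagged proteins to lysosomes. The island at its own start, chr6:159969001-159970000, was unmethylated in every library, between 0.377% after etoposide and 1.04% after propyl gallate. The island 36.4 kb inside the gene, chr6:160005001-160006000, where the table annotates an exon of AIRN, was half-methylated. It read 57.4% (vehicle control), 58.0% (etoposide), 50.5% (propyl gallate), 53.2% (theophylline) and 47.4% (5-aza-dc), from 1916 to 2381 calls. The next window of that island, chr6:160006001-160007000, lay between 4.05% and 8.67% with 119 to 265 calls, so the half-methylated level did not extend over it. The other 20 windows of the gene, none of them in an island, all had means over 70%.

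GRB10 (ENSG00000106070, chr7:50590063-50793462, minus strand) encodes an adaptor protein that binds insulin and IGF1 receptors and dampens their signal. Both island windows at its upstream start, chr7:50792001-50793000 and chr7:50793001-50794000, lay between 0.246% and 1.11% in all 5 libraries. The island 11.0 kb inside, chr7:50782001-50783000, was half-methylated, with 58.3% (vehicle control), 63.3% (etoposide), 60.8% (propyl gallate), 46.8% (theophylline) and 52.3% (5-aza-dc), from 392 to 899 calls. The theophylline library was the lowest there. A window outside islands 165 kb inside the gene, chr7:50628001-50629000, also fell in the class and varied little, from 57.8% after etoposide to 62.0% after theophylline.

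PEG10 (ENSG00000242265, chr7:94656325-94669695, plus strand) derives from a retrotransposon and SGCE (ENSG00000127990, chr7:94524204-94656572, minus strand) encodes epsilon-sarcoglycan, and their starts face away from each other within a shared island. Both island windows over these starts were unmethylated in all libraries. In chr7:94655001-94656000 the β-value was 2.26% (vehicle control), 2.05% (etoposide), 1.66% (propyl gallate), 0.405% (theophylline) and 1.67% (5-aza-dc). In chr7:94656001-94657000 it lay between 0.521% and 1.61%. This island was named above as the control region, and neither window over the starts read near the middle of the scale. Between these windows and the remaining PEG10 window no value was available here, so whether any part there is half-methylated was not assessed. The remaining PEG10 window, an island in the 3′ UTR at chr7:94664001-94665000, lay between 93.5% after 5-aza-dc and 97.5% after etoposide.

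MEST (RefSeq gene ID 4232, chr7:130486175-130506465, plus strand) encodes a protein of the hydrolase fold family expressed from the paternal allele. Its upstream island, chr7:130486001-130487000, where MESTIT1 has an exon, was low, with 2.58% (vehicle control), 4.28% (etoposide), 5.71% (propyl gallate), 4.35% (theophylline) and 6.39% (5-aza-dc). The vehicle control was the lowest of the 5 there. A run of 3 half-methylated windows followed, 4.33 to 6.33 kb inside the gene. The window chr7:130490001-130491000 read 43.2% (vehicle control), 46.4% (etoposide), 39.5% (propyl gallate), 50.0% (theophylline) and 34.2% (5-aza-dc). The window chr7:130491001-130492000 read 58.3%, 52.8%, 52.6%, 48.5% and 55.7% in that order, with the vehicle control the highest. The window chr7:130492001-130493000 read 45.9%, 47.8%, 46.6%, 55.9% and 54.6%, with the vehicle control the lowest. The MEST internal start sequence printed above crosses the border between the last pair. Windows of the gene on either side, at 1.33 and 11.3 kb, were outside islands and over 70%.

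**Figure D1:**
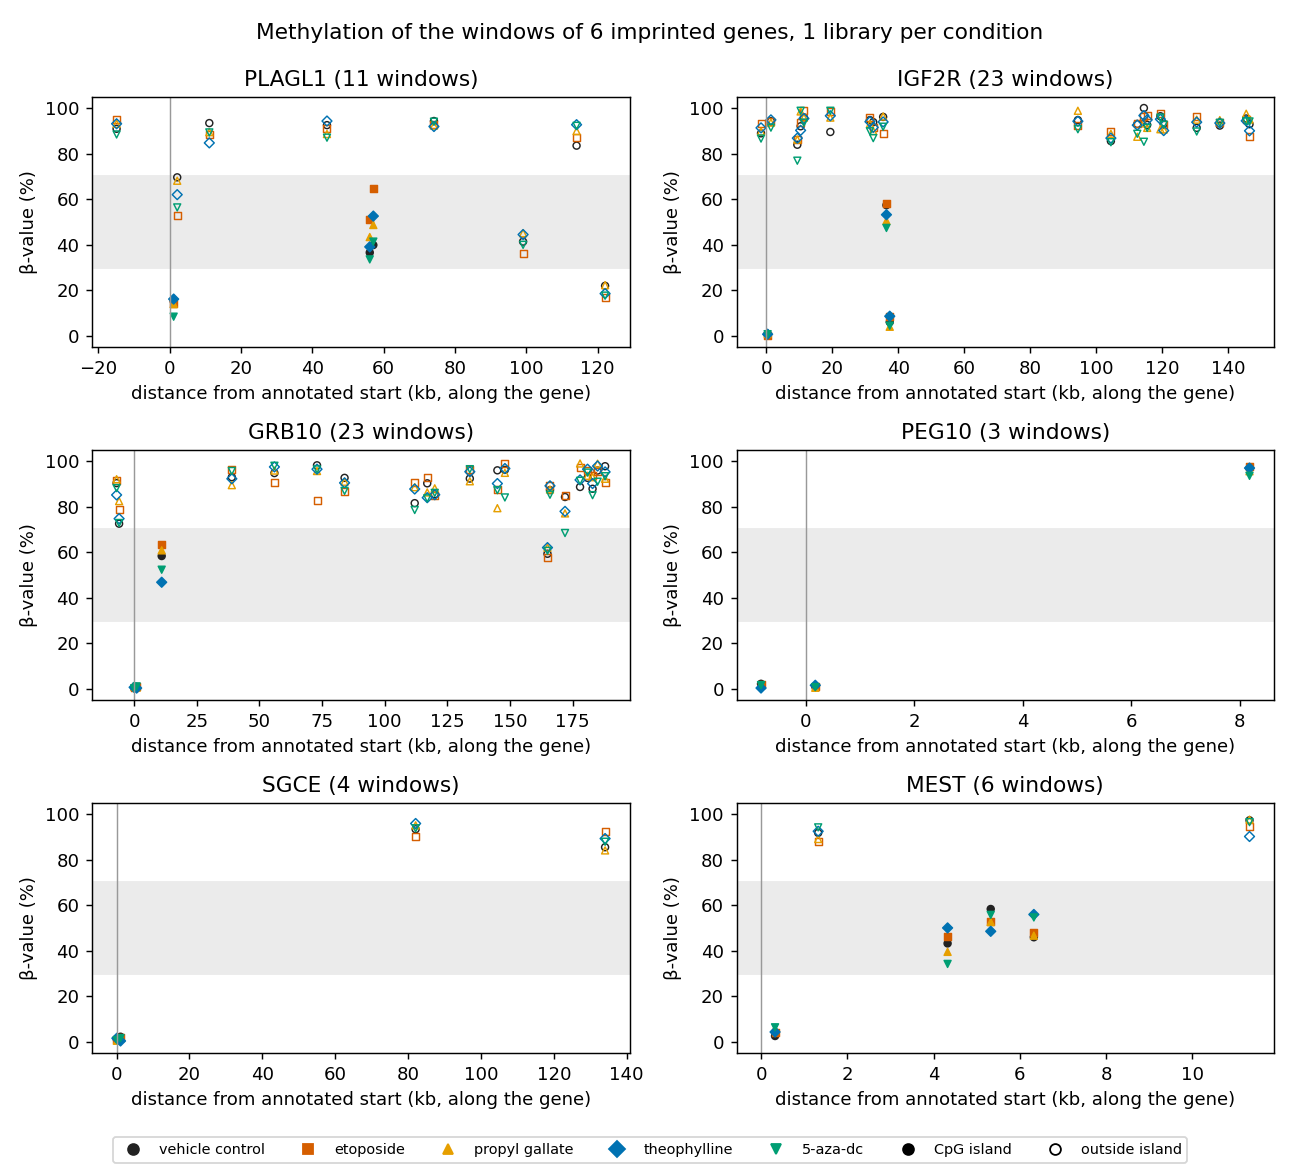
β-value (y axis, %) of every window against the distance of its centre from the annotated start (x axis, kb along the gene) for each of the 6 genes, with 1 symbol per library, filled for CpG islands and open outside them. Grey bands mark 30% to 70%, and PLAGL1, IGF2R, GRB10 and MEST have island windows inside the band while PEG10 and SGCE have none.

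Each chemical library was compared with the vehicle control library by Fisher's exact test (two-sided) in every window, with Benjamini-Hochberg adjustment over the 288391 windows. All 4 comparisons share the vehicle control library, so an unusual value in it enters all of them. A window was called where the adjusted p was under 0.01 and the difference at least 25 percentage points. None of the 68 windows was called after any chemical, and the background in the table was also low, with 0.193% of windows called (etoposide), 0.176% (propyl gallate), 0.174% (theophylline) and 0.310% (5-aza-dc). The largest difference, 24.9 points in a PLAGL1 window after etoposide, lay just under the limit.

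By the adjusted p alone, the etoposide library was higher in 7 windows (10.3%) and lower in 5 (7.35%), against a background of 6.37% and 3.74%. The propyl gallate library was higher in 6 (8.82%) and lower in 5 (7.35%), against 6.55% and 3.71%. The theophylline library was higher in 5 (7.35%) and lower in 3 (4.41%), against 8.13% and 2.86%. The 5-aza-dc library was higher in 4 (5.88%) and lower in 5 (7.35%), against 3.55% and 10.4%. With counts this small, the shares lay near the background and give no result about the genes. Of the 10 half-methylated windows, 4 passed with etoposide, 3 with propyl gallate, 5 with theophylline and 4 with 5-aza-dc, and of the remaining 58 windows 8, 8, 3 and 5 passed. The table's half-methylated windows passed in 13.2%, 13.4%, 13.5% and 20.8% of cases in that order. For half-methylated island windows the counts were 3, 3, 5 and 3 of 7, against 27.3%, 26.9%, 27.7% and 38.7% of the table's. The difference between these shares was not tested, and the number of calls, which sets how small a difference passes, differed between windows.

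The largest differences of the etoposide library were in PLAGL1, in opposite directions at the island and at the shore. In the island window chr6:144007001-144008000 the β-value rose by 24.9 points (Newcombe interval 19.9 to 29.6, adjusted exact p = 6.73e-19), and in the adjoining window chr6:144008001-144009000 by 14.5 points (12.5 to 16.5, adjusted exact p = 4.95e-41). Among the table's 2884 half-methylated island windows, 0.798% had a higher difference than the first and 3.40% a higher one than the second. Differences of at least 10 points in either direction were found in 178 of the 2096 such windows with at least 500 calls in both libraries (8.49%) and of at least 25 points in 4 (0.191%). In the shore window chr6:144062001-144063000 it fell by 16.9 points (-23.7 to -9.95, adjusted exact p = 8.06e-05), and in the GRB10 intron window chr7:50720001-50721000 by 15.3 points, from 98.1% to 82.8% with 103 and 93 calls (-24.3 to -7.28, adjusted exact p = 0.00355). The half-methylated island of MEST also had a lower window, chr7:130491001-130492000, at -5.45 points (-7.76 to -3.13, adjusted exact p = 0.000153). IGF2R differed by 0.565 points in its half-methylated island (-2.36 to 3.48) and GRB10 by 4.93 (-1.74 to 11.5), and neither passed.

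The propyl gallate library differed by 8.83 points or less at the half-methylated islands. The PLAGL1 window chr6:144008001-144009000 rose by 6.81 points (4.82 to 8.79, adjusted exact p = 5.99e-09), and its neighbour differed by 8.83 points (3.08 to 14.5, adjusted exact p = 0.0213), which did not pass. The AIRN island in IGF2R fell by 6.89 points (-9.87 to -3.89, adjusted exact p = 0.000211), and MEST window chr7:130491001-130492000 fell by 5.65 points (-7.94 to -3.35, adjusted exact p = 6.68e-05). Outside the class, the largest fall was in a GRB10 window far from islands, chr7:50648001-50649000, from 95.9% to 79.3% (-16.7 points, -23.2 to -10.3, adjusted exact p = 1.94e-05), with 197 and 193 calls. An IGF2R intron window, chr6:159979001-159980000, rose from 92.0% to 98.5% (6.48 points, 3.85 to 9.37, adjusted exact p = 7.79e-05).

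In the theophylline library, neighbouring windows of the MEST island differed from the vehicle control in opposite directions. The window chr7:130490001-130491000 rose by 6.80 points (3.19 to 10.4, adjusted exact p = 0.00324), the middle one fell by 9.79 points (-12.0 to -7.55, adjusted exact p = 2.02e-14) and chr7:130492001-130493000 rose by 10.0 points (7.22 to 12.8, adjusted exact p = 1.25e-09). In the GRB10 internal island the β-value fell by 11.5 points (-17.1 to -5.70, adjusted exact p = 0.00180), and 4.96% of the table's half-methylated island windows had a lower difference. The PLAGL1 window chr6:144007001-144008000 rose by 12.7 points (7.09 to 18.2, adjusted exact p = 0.000256), while chr6:144008001-144009000 differed by 2.55 points (0.580 to 4.52, adjusted exact p = 0.0572). The IGF2R island was 4.18 points lower, which missed the threshold (-7.09 to -1.27, adjusted exact p = 0.0316).

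The library treated with 5-aza-dc, the methyltransferase inhibitor, had lower values in 48 of the 68 windows and higher values in 20, and 168652 of the table's windows were lower against 117503 higher. The AIRN island in IGF2R fell by 10.0 points (-12.9 to -7.17, adjusted exact p = 9.07e-10), and 18.0% of the table's half-methylated island windows had a lower difference. MEST window chr7:130490001-130491000 fell by 8.95 points (-12.6 to -5.29, adjusted exact p = 4.85e-05), whereas chr7:130492001-130493000 rose by 8.71 points (5.88 to 11.5, adjusted exact p = 1.43e-07), a difference exceeded by 5.31% of those windows. The PLAGL1 shore window fell by 13.2 points (-20.5 to -5.75, adjusted exact p = 0.00488). The low island at the upstream start of PLAGL1, chr6:144063001-144064000, fell by 6.82 points (-9.48 to -4.09, adjusted exact p = 3.63e-05). The 2 half-methylated island windows of PLAGL1 differed by 1.48 points (-3.57 to 6.53) and -3.04 points (-4.94 to -1.13), without passing. Outside the class, a GRB10 shore window, chr7:50621001-50622000, fell from 84.2% to 68.4% (-15.8 points, -23.5 to -8.42, adjusted exact p = 0.000481), and an IGF2R window, chr6:159988001-159989000, rose from 89.5% to 98.8% (9.34 points, 6.45 to 12.2, adjusted exact p = 2.52e-07). In that IGF2R window the vehicle control was the lowest library and the other chemicals read 95.8% to 98.6%.

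**Figure D2:**
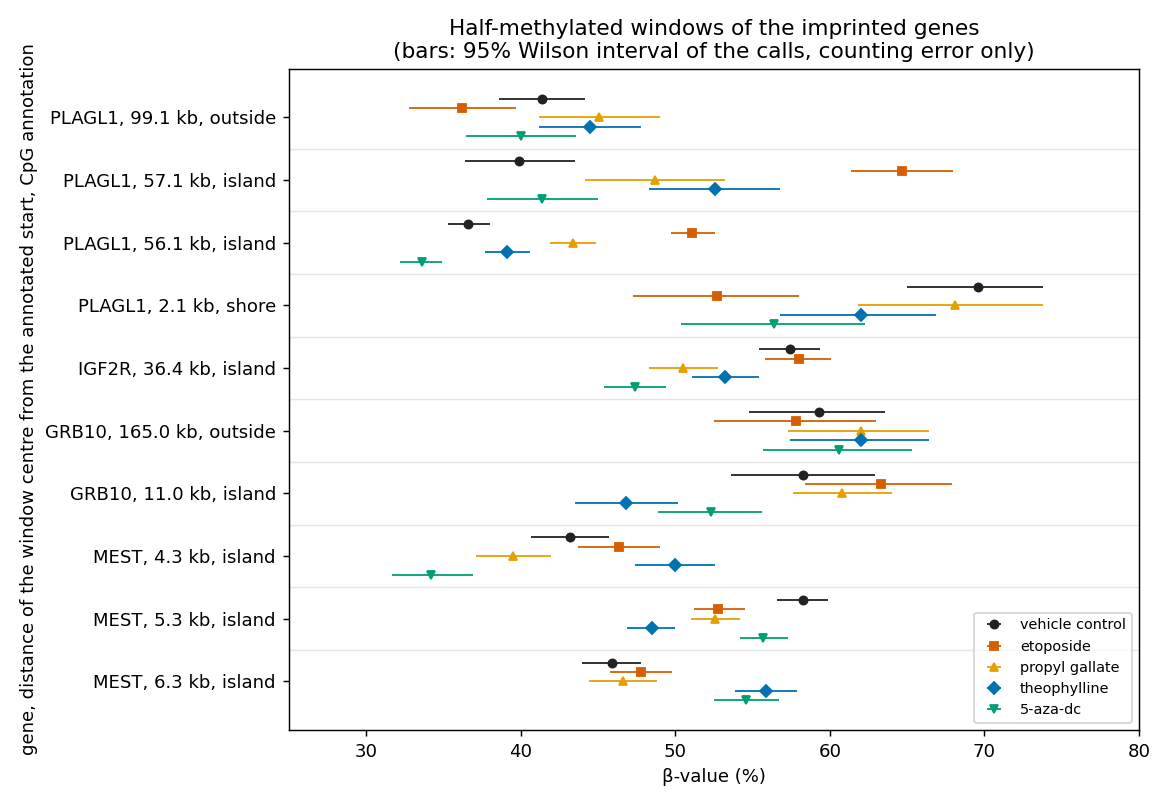
β-value (x axis, %) of the 10 half-methylated windows, each named on the y axis by its gene, its distance from the annotated start (kb) and its CpG annotation, with 1 point per library and its 95% Wilson interval. The etoposide points at PLAGL1 56.1 and 57.1 kb (51.1% and 64.7%) lie right of the other 4 libraries, and no library keeps the same place in the order across the windows.

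Averages over windows depended on the class of window. Over the 10 half-methylated windows the mean β-value was 51.0% (vehicle control), 53.1% (etoposide), 51.7% (propyl gallate), 51.5% (theophylline) and 47.6% (5-aza-dc), with counting standard errors from 0.51 to 0.57 points. The difference from the vehicle control was 2.09 points with etoposide (0.608 to 3.58), 0.758 with propyl gallate (-0.734 to 2.25), 0.484 with theophylline (-0.949 to 1.92) and -3.36 with 5-aza-dc (-4.82 to -1.90). Over the table's 11768 half-methylated windows it was -0.000221, 0.189, 0.943 and -2.99 points in that order. Over the 7 half-methylated island windows alone, the etoposide library was higher by 6.36 points (4.88 to 7.83), at 54.9% against 48.5%. It was higher in 6 of the 7 windows, and the mean over the table's 2884 such windows was 0.115 points. PLAGL1 held the largest differences of the 7, at 24.9 and 14.5 points, and the others ran from -5.45 to 4.93 points. The median over the 7 was 3.16 points, beside 0.133 for the table, and the standard deviation was 10.1 points. The mean of 6.36 points thus rested largely on the PLAGL1 island. Over the same 7 windows the differences were 0.379 points with propyl gallate (-1.08 to 1.83), 0.941 with theophylline (-0.499 to 2.38) and -2.91 with 5-aza-dc (-4.31 to -1.51), beside 0.277, 0.780 and -3.79 for the table. Single windows of the 10 scattered more than their mean differences, with a standard deviation of 11.4 points with etoposide, 5.18 with propyl gallate, 8.38 with theophylline and 6.45 with 5-aza-dc. Medians over the 10 were 1.23, 1.61, 2.65 and -2.78 points, beside 0.0894, 0.161, 0.841 and -2.50 for the table's half-methylated windows.

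The mean depended on which genes entered. Without PLAGL1 the differences over the half-methylated windows were 0.609 points for etoposide, -1.72 and -0.982 for propyl gallate and theophylline, which both turned sign, and -2.91 for 5-aza-dc. Without MEST that of theophylline turned from 0.484 to -0.314 points. By gene, the half-methylated windows of PLAGL1 differed by 4.32 points with etoposide (1.89 to 6.75), 4.47 with propyl gallate (1.78 to 7.16), 2.68 with theophylline (0.202 to 5.17) and -4.03 with 5-aza-dc (-6.58 to -1.47). Those of MEST differed by -0.127 (-1.85 to 1.59), -2.87 (-4.58 to -1.16), 2.35 (0.653 to 4.04) and -0.919 points (-2.62 to 0.787) in that order. Those of GRB10 differed by 1.74 (-3.04 to 6.51), 2.60 (-1.64 to 6.83), -4.37 (-8.64 to -0.109) and -2.35 points (-6.69 to 1.99).

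Over the remaining 58 windows, mostly highly methylated gene body sequence, the difference was 0.323 points with etoposide (-0.326 to 0.973), -0.0218 with propyl gallate (-0.646 to 0.602), -0.0133 with theophylline (-0.652 to 0.626) and -1.85 with 5-aza-dc (-2.56 to -1.14). The table as a whole differed by 0.502, 0.548, 0.963 and -1.05 points. By gene and over all their windows, the mean was lower after 5-aza-dc for PLAGL1 (58.9% against 61.8%), IGF2R (81.2% against 83.5%) and GRB10 (77.2% against 79.8%), and the interval of each difference lay below 0. PEG10 went from 33.4% to 32.0% (-1.37 points, -2.34 to -0.393), while SGCE and MEST differed by 0.468 (-0.892 to 1.83) and 0.444 points (-0.871 to 1.76). The 5-aza-dc library was the lowest of the 5 in 27 of the 68 windows (39.7%), against 35.1% of all windows.

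Neighbouring and related imprinted genes were taken as a fixed list of 13, and 88 of their windows belonged to none of the 6 genes. All windows of HYMAI, AIRN and MESTIT1 were also windows of PLAGL1, IGF2R or MEST. Of the 88 windows 3 were half-methylated, in the organic cation transporter genes SLC22A2 and SLC22A3 beside IGF2R. The SLC22A3 island window chr6:160347001-160348000 read 64.9% (vehicle control), 71.6% (etoposide), 63.4% (propyl gallate), 66.5% (theophylline) and 62.5% (5-aza-dc). Etoposide alone passed there, at 6.75 points (adjusted exact p = 0.00135). The SLC22A2 windows read 53.6% and 67.3% in the vehicle control, and no chemical library passed there. No window of the 88 was called at 25 points, and by the adjusted p alone 7 were higher (7.95%) and 2 lower (2.27%) with etoposide, 5 higher (5.68%) and 5 lower (5.68%) with propyl gallate, 8 higher (9.09%) and 0 lower with theophylline, and 1 higher (1.14%) and 11 lower (12.5%) with 5-aza-dc. The shares over all windows, higher and lower, were 6.37% and 3.74%, 6.55% and 3.71%, 8.13% and 2.86%, and 3.55% and 10.4% in that order, so these counts are no result about the related genes. FAM50B, an imprinted gene on the short arm of chromosome 6, was named after its values were seen. Its island held an unmethylated window (chr6:3849001-3850000, 3.80% in the vehicle control) directly beside a methylated one (chr6:3850001-3851000, 96.1%), and no half-methylated one.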

How the data were processed

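DNA methylation was measured by RRBS in 5 libraries of human iPSCs, with 1 per condition. Per the labels, the authors prepared DNA with a tissue kit, while the methods name a cell culture kit. The authors trimmed reads with Trim Galore 0.5.0, aligned them with Bismark 0.20.0, tiled the CpG calls with methylKit 1.10.0 in windows of 1000 bases, normalized coverage across libraries and kept windows with a coverage of at least 10, and not among the most extreme, in every library. For the vehicle control the deposited values are counts of calls. For the other libraries each deposited call number is a score, made by the authors from counts by multiplying with 1.18 (etoposide), 1.09 (propyl gallate), 1.15 (theophylline) or 1.21 (5-aza-dc) and rounding. The deposited β-value is a fraction of the scaled calls.

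The scaling was undone, and scaling again returned the deposited values in all but 9, 5, 0 and 3 windows of the 4 chemical libraries in that order. β-values, Wilson and Newcombe intervals and Fisher's exact tests used the recovered calls, between 188844850 and 228919184 per library in these windows. The tests were checked on simulated data with 200 changed windows. The build is hg38 per the labels, and gene positions lay within 1000 bases of RefSeq GRCh38.p14 for 97.3% of 32947 genes.

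The members and lists were chosen with earlier results of these data known. Named windows were every half-methylated one, the islands nearest the starts, the 2 largest rises and the 2 largest falls per chemical (adjusted p under 0.01, 30 calls or more in each library), and related genes with a half-methylated window. Where windows passing the test are described beyond these, they belong to the same islands or, for FAM50B, were chosen after their values were seen. Python 3.11.15, numpy 2.4.6, pandas 2.3.3, scipy 1.17.1 and numba 0.67.0 were used.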

Additional observations from a re-analysis of the deposited data

How the results depend on the processing

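No paired analysis was possible because each condition has 1 library. The number of half-methylated windows stayed between 7 and 12 with other limits, the vehicle control alone, a minimum of calls or without MEST, but was 3 when windows were taken by gene symbol alone, since 5 of the 7 windows lost carry the symbols of HYMAI, AIRN or MESTIT1 and 2 carry none. With that choice the windows passing by adjusted p numbered 6, 3, 2 and 3 for etoposide, propyl gallate, theophylline and 5-aza-dc, the difference over all windows was -0.160, 1.24, -0.212 and -1.30 points in that order, and that over half-methylated windows was -5.73 points for etoposide, a reversal, -5.33 for theophylline and -6.86 for 5-aza-dc.

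At a limit of 10 points, 4, 1, 3 and 3 windows were called. With an adjusted p under 0.05, 20, 14 and 18 windows passed for etoposide, theophylline and 5-aza-dc. With calls divided by 2, as a partial allowance for calls that share a molecule, 3, 1, 2 and 4 passed. The number of calls per molecule was not known and may be above 2. With the calls as deposited 14 passed for 5-aza-dc. Shares over all windows were not counted at these other settings. The counts of windows called or passing in this section therefore give no result about the genes. Pooling all calls gave differences of 1.21, 1.70, 0.674 and -3.42 points over all windows and 4.17 for etoposide over half-methylated ones. The median over half-methylated windows was 2.65 points for theophylline.

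Alternatives chosen after seeing the data were the deposited β-values, which changed no direction, leaving out MEST, which left 4 windows passing for theophylline and moved the half-methylated difference of propyl gallate to 2.31 and of theophylline to -0.314 points, and leaving out PLAGL1, which gave -1.72 for propyl gallate and -0.982 for theophylline. Depth limits the thinnest windows, with 27 calls in 1 library.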
